A study of Mus musculus with 19 samples.

Results

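The subject of this account is a set of 38 listed mouse genes of cholesterol and lipid synthesis, followed across progenitors of the mouse cerebellum and tumors that arise there. The genes were chosen by symbol, with earlier results of these data known. Of these genes, 36 had a probe set in the annotation of the Affymetrix Mouse430+2 array, and each took the probe set with the highest mean signal, among 18193 genes in all. Acat2 and Nr1h2 were not analysed here, and Nr1h3, which encodes the sterol receptor LXR alpha, stayed below the array median in every group, with group means from 2.09 in NEP tumors to 2.29 in NEPs on the log2 scale. The other 35 genes were tested among 12148.

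The 19 arrays fell into 5 groups, all on a C57BL/6 background, with cells taken straight from the cerebellum and neither cultured nor treated. NEP tumors (4 arrays) were tumor cells of Nestin-CreERT2/Ptch1C/C mice, and GNP tumors (4 arrays) were tumor cells of Math1-CreERT2/Ptch1C/C mice, so the Nestin or Math1 promoter drove the Cre that acts on Ptch1, the receptor that restrains Hedgehog signalling. The progenitors were NEPs (Nestin+ cells, 4 arrays), GNPs (Math1+ cells, 4 arrays) and NSCs (CD133+, Lin- cells, 3 arrays). Ages, sexes, any pooling of animals and the timing of Cre induction were not given. Nothing in the labels says that the arrays of a group came from separate animals, so p-values measure only the spread between these arrays.

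Cells build cholesterol from acetyl-CoA through mevalonate, farnesyl diphosphate, squalene and lanosterol. When membrane sterol is low, SCAP carries the SREBP proteins out of the endoplasmic reticulum, and their cleaved forms switch on the genes of sterol and fatty acid synthesis, while INSIG proteins hold SCAP back when sterol is plentiful. When sterol is high, LXR receptors raise the exporters ABCA1 and ABCG1 and the lipid carrier APOE, which astroglia supply to neurons in the brain. Hedgehog ligands carry a cholesterol group, and sterols act on Smoothened, the signal transducer that Ptch1 restrains.

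Promoters of 4 genes are shown because their signals were lower in tumors than in progenitors or NSCs, and because they span the route: Hmgcs1 at its start, Mvk in the mevalonate steps, Dhcr7 at its end and Srebf2 as its regulator. Each sequence is the + strand of the last 150 bases before a RefSeq start site in GRCm38.p6. The positions are chr13:119690201-119690350 for Hmgcs1, chr5:114444119-114444268 for Mvk, chr7:143830064-143830213 for Dhcr7 and chr15:82147119-82147268 for Srebf2. Capitals mark matches to CCAAT on either strand (ATTGG on the printed strand), the letters that the factor NF-Y binds, and to TCACNCCAC, a form of the sterol regulatory element that SREBPs bind.
Hmgcs1: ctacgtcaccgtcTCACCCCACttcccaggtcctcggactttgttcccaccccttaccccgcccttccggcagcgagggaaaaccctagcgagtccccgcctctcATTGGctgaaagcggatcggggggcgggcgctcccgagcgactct
Mvk: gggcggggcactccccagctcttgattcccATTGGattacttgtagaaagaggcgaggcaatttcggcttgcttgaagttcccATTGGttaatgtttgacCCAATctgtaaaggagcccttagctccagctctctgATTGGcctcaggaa
Dhcr7: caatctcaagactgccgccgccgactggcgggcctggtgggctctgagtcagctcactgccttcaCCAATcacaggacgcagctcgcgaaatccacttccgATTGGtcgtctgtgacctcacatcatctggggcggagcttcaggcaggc
Srebf2: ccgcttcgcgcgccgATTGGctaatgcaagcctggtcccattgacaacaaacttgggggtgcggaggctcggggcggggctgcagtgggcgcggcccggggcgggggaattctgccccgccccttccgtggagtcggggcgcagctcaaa

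The table of promoters held an entry for 30 of the 38 genes. In the 250 bases before a start, TCACNCCAC occurred on either strand in 1 of the 30, Hmgcs1, where it lies in bases -137 to -129, against 1.2% of 17491 protein-coding genes. CCAAT occurred on either strand in 20 of the 30 (66.7%), against 39.48% of coding genes, and the letters of the motifs do not overlap. By role, CCAAT was present for 15 of 16 sterol synthesis genes and 4 of 5 SREBP regulators. It was present for 1 of 5 fatty acid genes, Fasn, and for 0 of 4 transport and LXR genes. For Dhcr7, with 3 listed starts, the start with the most CCAAT matches is shown. A match describes these letters only.

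The sorting genes matched the group names for some groups only. Nestin's gene, Nes, averaged 6.21 in NEP tumors, 5.27 in GNP tumors, 5.87 in NEPs, 3.49 in GNPs and 4.47 in NSCs on the log2 scale. Atoh1, the mouse name of Math1, averaged 3.95 in NEPs and 8.85 in GNPs, but also 8.93 in NSCs and 10.47 and 9.43 in NEP and GNP tumors. Prom1, which encodes CD133, averaged 8.08 in NSCs, below the 8.61 in NEPs. Ptch1 averaged 11.46 and 11.21 in NEP and GNP tumors, against 10.52 in NEPs, 10.28 in GNPs and 10.26 in NSCs. Whether its probe set lies in the deleted part is not given in the sources used here, so that signal does not check the deletion. Numbers in the array titles put NEPs and GNPs in one series of arrays and NSCs and both tumors in another, here called runs 1 and 2. The titles do not say what these numbers stand for. Poly-A spike-ins, RNAs added to each sample, averaged 8.69 ± 0.26 in run 1 (SD, n = 8) and 6.50 ± 0.27 in run 2 (n = 11). In comparisons of NEPs or GNPs with tumors or NSCs, group and run therefore cannot be told apart.

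Arrays of a group also differed in other cell types. The median of 12 microglia markers was 9.37 and 9.47 on NEP arrays 1 and 2, against 4.44 and 2.37 on NEP arrays 3 and 4, and 9 fibroblast and mural markers split the same arrays (10.24 and 10.24, against 6.93 and 5.66). In GNPs 11 of the 12 microglia markers averaged below the array median. On NEP tumor arrays 1 and 2 the median of the 35 lipid genes was 7.52 and 7.58, against 8.19 and 7.94 on arrays 3 and 4. The median of 10 astroglia markers split these arrays too, at 6.38 and 6.32 against 7.88 and 7.58. In such mixed samples, fewer cells of a type and less RNA per cell cannot be told apart.

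**Figure D1:**
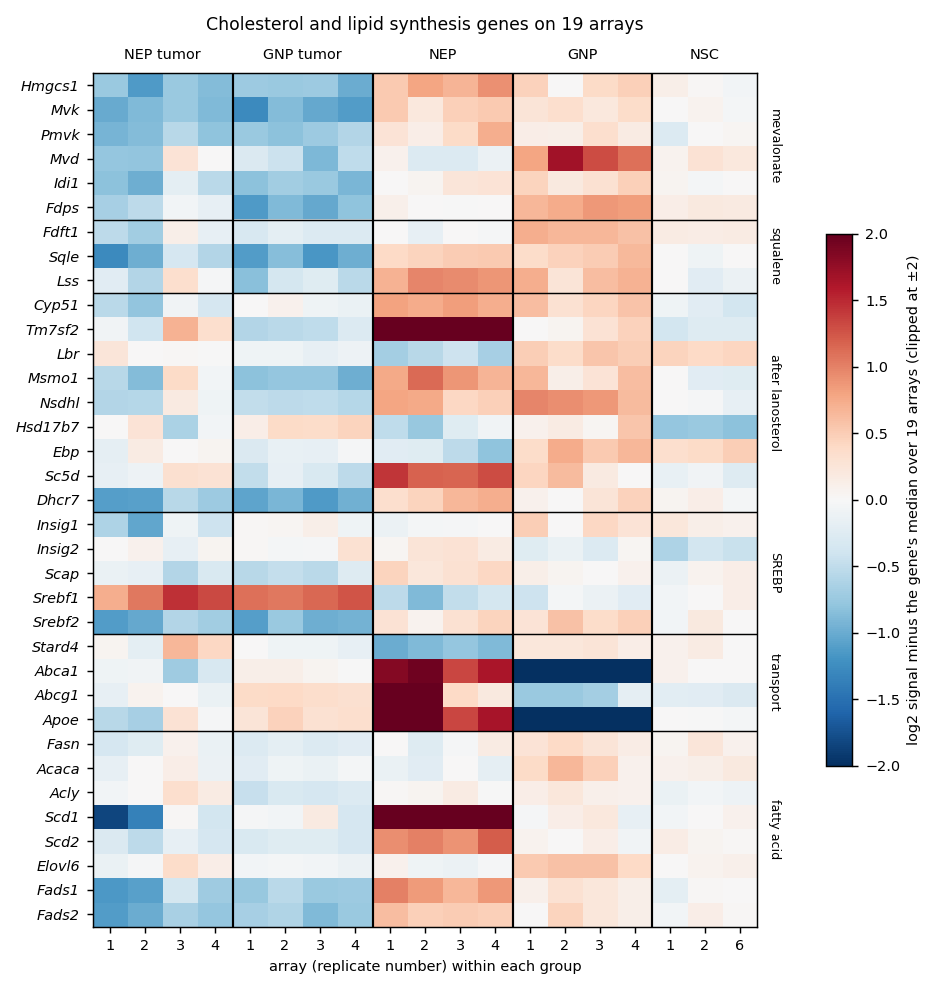
Log2 signal of the 35 tested genes (rows, in order of the pathway) on the 19 arrays (columns, by group), each value minus the median of its gene over all arrays and clipped at 2 in either direction. Most sterol synthesis rows are blue on the 8 tumor arrays and red on the NEP and GNP arrays, Srebf1 runs the other way, and NEP tumor arrays 3 and 4 are less blue than 1 and 2.

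Of 18 tested sterol synthesis genes, 13 fell and 2 rose in NEP tumors against NEPs, and 17 fell and none rose (0) in GNP tumors against GNPs. Against NSCs, 10 fell and 1 rose in NEP tumors, where 20.4% of all genes fell and 23.9% rose. In GNP tumors against NSCs, 13 fell and 1 rose, where 25.4% of all genes fell and 22.2% rose. In NEP tumors against NEPs, 23 of the 35 genes fell and 4 rose, by limma's moderated test with Benjamini-Hochberg adjustment over all 12148 genes (called at an adjusted p below 0.05). Over all genes tested, 32.6% fell and 36.2% rose. In GNP tumors against GNPs, 26 fell and 4 rose, where 31.4% of all genes fell and 18.5% rose. The median difference of the 35 genes was -1.0 in the first of these comparisons, against 0.05 over all genes, and -0.68 in the other, against -0.08. With all probe sets of a gene averaged, the first median was -0.57, against 0.10.

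NSCs lie in the same run as the tumors, and this comparison was added after the values were seen. In NEP tumors against NSCs, 18 of the 35 genes fell and 3 rose, where 20.4% of all genes fell and 23.9% rose. With NEP tumor arrays 3 and 4 alone, 15 fell and 6 rose, where 17.8% of all genes fell and 20.1% rose. In GNP tumors against NSCs, 20 fell and 3 rose, where 25.4% of all genes fell and 22.2% rose. The median differences were -0.33 against 0.02 over all genes for NEP tumors, and -0.38 against -0.02 for GNP tumors. With NEP tumor arrays 3 and 4 alone the first was -0.18, against 0.01. Those arrays had the higher medians of the 35 genes, so a smaller fall was built into that choice. Markers of some other cells were lower in tumors too: in NEP tumors against NSCs 8 of 9 fibroblast and mural, 5 of 7 endothelial and 6 of 10 astroglia markers fell, and 2 astroglia markers rose. Also in NEP tumors, 3 of 7 oligodendrocyte markers rose and 1 fell, 2 of 8 neuron markers rose, and 3 of 8 granule progenitor markers rose and 2 fell. In GNP tumors against NSCs 8 of 9 fibroblast and mural, 7 of 7 endothelial and 5 of 10 astroglia markers fell, and 1 astroglia marker rose. Of the others in GNP tumors, 1 oligodendrocyte marker rose and 1 fell, 2 neuron markers rose and 2 granule progenitor markers fell. No microglia marker passed in either tumor, but the pooled spread in that test includes the NEP arrays, which split in these markers. The array median of the microglia list ran from 4.11 to 5.45 in NEP tumors and from 5.54 to 5.91 in GNP tumors. In NSCs it ran from 4.15 to 4.61, so GNP tumor and NSC arrays did not overlap. The log2 of the summed microglia signal was 8.56 to 9.81 in NEP tumors, 10.19 to 10.25 in GNP tumors and 8.45 to 8.80 in NSCs. The part of these markers in the result was not tested. The tumor comparisons share their tumor arrays, and those with NSCs also share the NSC arrays, so they are given side by side and not counted as separate evidence.

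Every one of the 8 tumor arrays lay below every one of the 11 other arrays for 12 of the 35 genes (34.3%), against 5.51% of all genes. They were Hmgcs1, Mvk, Pmvk, Idi1 and Fdps of the mevalonate steps, Sqle and Dhcr7 of the later steps, the regulators Scap and Srebf2, and the desaturases Scd2, Fads1 and Fads2. The count rests on the probe set used for each gene, and other probe sets of Scd2 disagreed in direction, as given below. Every tumor array lay above every other array for 1 gene, Srebf1 (2.86%), against 5.02% of all genes.

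**Figure D2:**
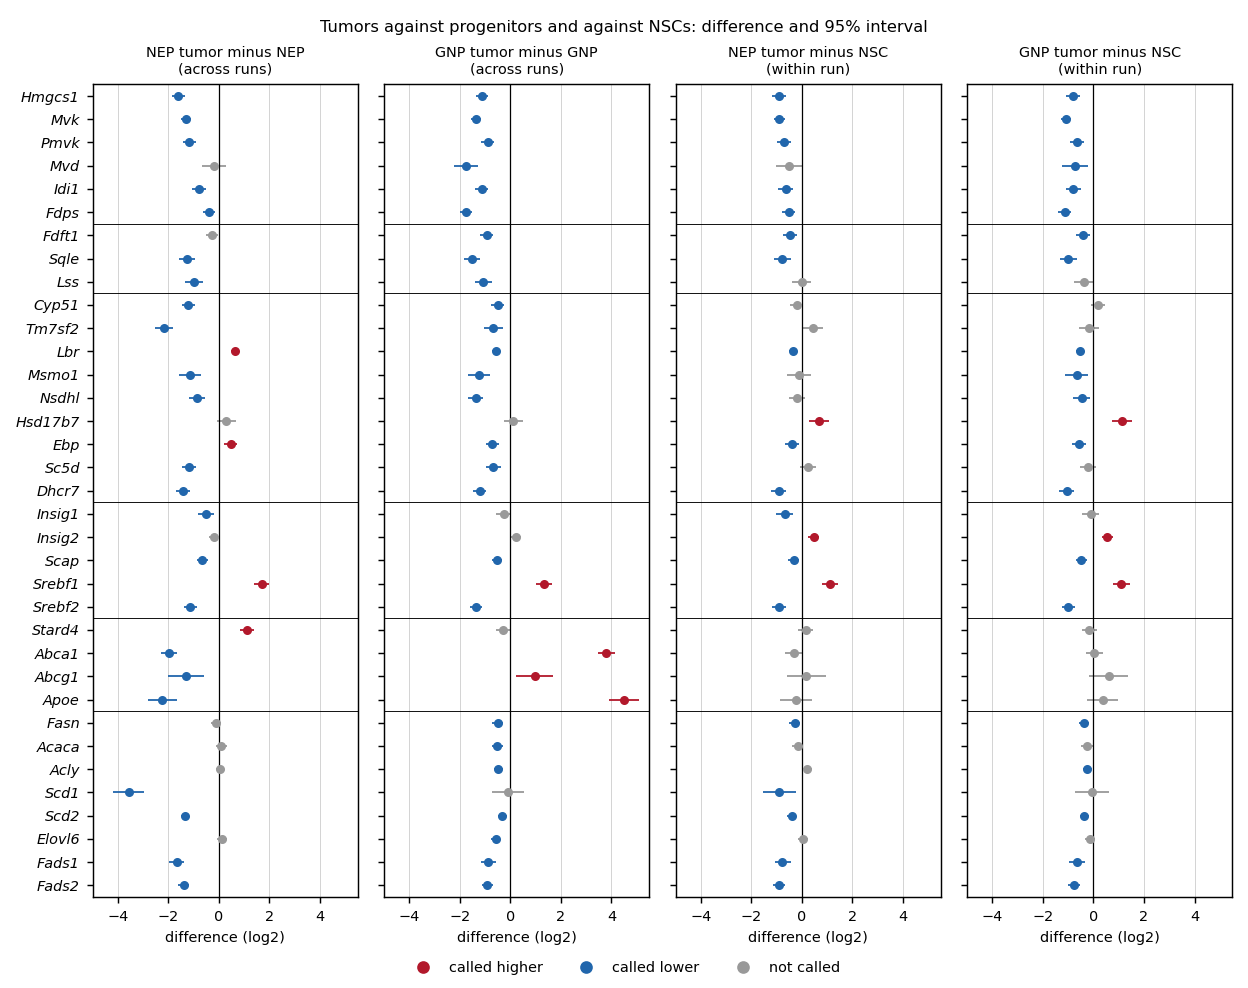
Difference in log2 signal (points) with its 95% interval (lines) for each of the 35 genes, for NEP tumors minus NEPs and GNP tumors minus GNPs, which cross runs, and for each tumor minus NSCs, which lie within a run. Red marks genes called higher, blue genes called lower and grey genes not called. Mevalonate genes lie left of 0 in every panel, whereas Abca1 and Apoe lie far from 0 only against the progenitors.

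Of the 6 tested genes of the mevalonate steps, 5 fell in NEP tumors and 6 in GNP tumors against their progenitors, and the same numbers fell against NSCs. Over all genes, 32.6% and 31.4% fell in NEP and GNP tumors against the progenitors, and 20.4% and 25.4% against NSCs. The counts of the roles below are to be read against these shares too. Each role holds few genes, and no test set its counts against the shares. Hmgcs1 makes HMG-CoA, the precursor of mevalonate. It had log2 signals of 9.62, 9.22, 9.62 and 9.49 in NEP tumors and 9.63, 9.62, 9.63 and 9.37 in GNP tumors. The progenitors had 10.88, 11.15, 11.04 and 11.28 in NEPs, 10.82, 10.36, 10.74 and 10.83 in GNPs, and 10.47, 10.38 and 10.31 in NSCs. No tumor array overlapped any other array. The fall was 3.04-fold in NEP tumors against NEPs (log2 difference -1.61 ± 0.12 SE, adjusted p = 3.3e-09, limma) and 2.18-fold in GNP tumors against GNPs (-1.12 ± 0.12 SE, adjusted p = 7.04e-07, limma). Against NSCs the differences were -0.90 in NEP tumors (adjusted p = 2.64e-05, limma) and -0.82 in GNP tumors (adjusted p = 5.51e-05, limma).

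Mvk, the kinase that phosphorylates mevalonate, had 3.70, 3.83, 3.96 and 3.82 in NEP tumors and 3.43, 3.84, 3.69 and 3.60 in GNP tumors, against 5.23, 4.92, 5.19 and 5.24 in NEPs, 4.96, 5.04, 4.92 and 5.08 in GNPs, and 4.71, 4.78 and 4.67 in NSCs. No tumor array overlapped any other array, and it fell by 1.32 and 1.36 against NEPs and GNPs, and by 0.89 and 1.08 against NSCs. Fdps makes farnesyl diphosphate, the branch point to sterols and prenylated proteins. It had 7.91, 8.05, 8.53 and 8.41 in NEP tumors and 7.44, 7.69, 7.56 and 7.78 in GNP tumors, against 8.68, 8.58, 8.57 and 8.59 in NEPs, 9.25, 9.32, 9.44 and 9.42 in GNPs, and 8.71, 8.78 and 8.76 in NSCs. Its fall was 3.35-fold in GNP tumors against GNPs (-1.74 ± 0.11 SE, adjusted p = 1.44e-09, limma) and 1.3-fold in NEP tumors against NEPs (-0.38, adjusted p = 0.00623). The smaller one was -0.14 with NEP tumor arrays 3 and 4 alone (adjusted p = 0.203).

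Mvd, the decarboxylase that yields isopentenyl diphosphate, had 5.36, 5.35, 6.41 and 6.14 in NEP tumors and 5.85, 5.71, 5.24 and 5.63 in GNP tumors, against 6.23, 5.87, 5.87 and 6.02 in NEPs, 6.93, 7.82, 7.45 and 7.24 in GNPs, and 6.21, 6.43 and 6.35 in NSCs. GNPs stood above every other array, and the fall of 1.75 in GNP tumors was the largest in that comparison (adjusted p = 6.16e-06, limma), whereas the difference of -0.18 between NEP tumors and NEPs missed the threshold (adjusted p = 0.487). Against NSCs the fall of 0.72 in GNP tumors lost its call without GNP tumor array 3 or NSC array 2 or 6 (-0.71 to -0.60). Pmvk, the next kinase, fell by 1.17 and 0.90 against NEPs and GNPs, and Idi1, the isomerase that follows, by 0.78 and 1.14.

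Of the 3 genes from squalene to lanosterol, 2 fell in NEP tumors against NEPs and 3 in GNP tumors against GNPs, and 2 fell in each tumor against NSCs. Sqle, the monooxygenase that oxidises squalene, had 7.24, 7.54, 8.19 and 7.94 in NEP tumors and 7.40, 7.67, 7.36 and 7.55 in GNP tumors. It had 8.92, 8.96, 9.03 and 9.04 in NEPs, 8.88, 8.98, 9.03 and 9.17 in GNPs, and 8.53, 8.43 and 8.52 in NSCs. All tumor arrays were below all others, and NEP tumor arrays 1 and 2 were below arrays 3 and 4. Sqle fell 2.4-fold in NEP tumors against NEPs (-1.26 ± 0.15 SE, adjusted p = 9.93e-07, limma) and 2.86-fold in GNP tumors against GNPs (-1.52 ± 0.15 SE, adjusted p = 2.45e-07, limma), and by 0.77 and 1.00 against NSCs. Lss, which closes the sterol rings to give lanosterol, fell by 1.00 and 1.07 against the progenitors. Its differences from NSCs were -0.01 in NEP tumors (95% interval from -0.39 to 0.37) and -0.38 in GNP tumors, and neither passed. Fdft1, the squalene synthase, fell by 0.93 in GNP tumors against GNPs, and its difference of -0.27 in NEP tumors missed the threshold (adjusted p = 0.0548).

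After lanosterol the picture was mixed. Of 9 genes, 6 fell and 2 rose in NEP tumors against NEPs, and 8 fell in GNP tumors against GNPs, but 3 fell and 1 rose in NEP tumors against NSCs, and 5 fell and 1 rose in GNP tumors against NSCs. Dhcr7, whose enzyme makes cholesterol in the last step, had 7.28, 7.29, 7.83 and 7.66 in NEP tumors and 7.33, 7.46, 7.25 and 7.42 in GNP tumors, against 8.71, 8.83, 9.05 and 9.11 in NEPs, 8.47, 8.38, 8.64 and 8.84 in GNPs, and 8.43, 8.51 and 8.34 in NSCs. It was lower in every tumor array than in any other, by 1.41 and 1.22 against the progenitors (adjusted p = 5.47e-08 and 7.2e-07, limma) and by 0.91 and 1.06 against NSCs.

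Tm7sf2 and Lbr encode reductases of the same step, and Lbr is also the lamin B receptor of the nuclear envelope. Tm7sf2 had 3.81, 3.48, 4.58 and 4.22 in NEP tumors and 3.29, 3.34, 3.37 and 3.60 in GNP tumors, against 6.25, 6.23, 6.04 and 6.27 in NEPs, 3.88, 3.93, 4.17 and 4.34 in GNPs, and 3.52, 3.62 and 3.62 in NSCs. Only NEPs were clearly above the rest of the arrays. Tm7sf2 fell by 2.17 in NEP tumors against NEPs (adjusted p = 8.11e-09, limma). Lbr had 10.69, 10.45, 10.48 and 10.44 in NEP tumors and 10.37, 10.36, 10.29 and 10.35 in GNP tumors, against 9.77, 9.89, 10.04 and 9.79 in NEPs, 10.94, 10.82, 11.00 and 10.94 in GNPs, and 10.89, 10.85 and 10.88 in NSCs. Lbr rose by 0.65 in NEP tumors against NEPs (adjusted p = 6.03e-07, limma) but fell by 0.58 in GNP tumors against GNPs (adjusted p = 4.39e-06, limma), and fell by 0.36 and 0.53 against NSCs.

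Ebp, the sterol isomerase, likewise rose by 0.46 in NEP tumors against NEPs and fell by 0.73 in GNP tumors against GNPs. Its signals were 7.58, 7.92, 7.76 and 7.82 in NEP tumors and 7.47, 7.61, 7.6 and 7.73 in GNP tumors, against 7.54, 7.51, 7.24 and 6.95 in NEPs, 8.12, 8.50, 8.29 and 8.42 in GNPs, and 8.09, 8.15 and 8.25 in NSCs. By group means, both tumors lay between NEPs and GNPs for Lbr and Ebp. Nsdhl, a dehydrogenase that removes methyl groups from the sterol, had 6.89, 6.91, 7.66 and 7.40 in NEP tumors and 6.98, 6.95, 6.97 and 6.91 in GNP tumors, against 8.27, 8.23, 7.89 and 7.96 in NEPs, 8.45, 8.41, 8.34 and 8.12 in GNPs, and 7.48, 7.45 and 7.31 in NSCs. It fell by 0.87 and 1.38 against the progenitors.

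Hsd17b7, a ketoreductase of the same demethylation, went against most sterol genes. It had 6.07, 6.34, 5.44 and 6.02 in NEP tumors and 6.20, 6.46, 6.44 and 6.52 in GNP tumors, against 5.56, 5.31, 5.83 and 6.00 in NEPs, 6.16, 6.24, 6.11 and 6.63 in GNPs, and 5.30, 5.32 and 5.25 in NSCs. It rose by 0.68 in NEP tumors (adjusted p = 0.00739, limma) and by 1.12 in GNP tumors (adjusted p = 0.000109, limma) against NSCs, and its differences from NEPs and GNPs, 0.29 and 0.12, did not pass. With NEP tumor arrays 3 and 4 alone the rise over NSCs was 0.44 (adjusted p = 0.106).

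Sc5d, the desaturase before Dhcr7, had 5.27, 5.33, 5.75 and 5.72 in NEP tumors and 4.93, 5.26, 5.13 and 4.91 in GNP tumors. It had 6.86, 6.61, 6.60 and 6.74 in NEPs, 5.86, 6.06, 5.61 and 5.43 in GNPs, and 5.28, 5.36 and 5.17 in NSCs. It fell by 1.18 and 0.68 against the progenitors, while its differences from NSCs, 0.25 and -0.21, did not pass. Cyp51, the lanosterol demethylase, had 7.14, 6.89, 7.61 and 7.34 in NEP tumors and 7.68, 7.77, 7.59 and 7.54 in GNP tumors, against 8.49, 8.42, 8.51 and 8.40 in NEPs, 8.29, 7.99, 8.11 and 8.25 in GNPs, and 7.6, 7.46 and 7.31 in NSCs. It fell by 1.21 and 0.51 against the progenitors, and its differences from NSCs, -0.21 and 0.19, did not pass. Another Cyp51 probe set, with a mean of 7.15, gave -2.92 for GNP tumors against NSCs, against 0.19 for the one used, so the direction of that difference depends on the probe set. Msmo1, a methylsterol oxidase, fell by 1.13 and 1.25 against the progenitors and by 0.67 in GNP tumors against NSCs.

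The pair of SREBP genes moved in opposite directions. Srebf2 encodes SREBP2, which in mouse liver drives mainly the sterol synthesis genes. It had 6.01, 6.11, 6.55 and 6.43 in NEP tumors and 6.03, 6.39, 6.15 and 6.19 in GNP tumors, against 7.42, 7.2, 7.43 and 7.57 in NEPs, 7.40, 7.71, 7.49 and 7.6 in GNPs, and 7.08, 7.32 and 7.13 in NSCs. No tumor array reached any other array. Srebf2 fell 2.19-fold in NEP tumors against NEPs (-1.13 ± 0.12 SE, adjusted p = 3.19e-07, limma) and 2.56-fold in GNP tumors against GNPs (-1.36 ± 0.12 SE, adjusted p = 7.51e-08, limma), and by 0.90 and 0.99 against NSCs (adjusted p = 2.87e-05 and 8.85e-06, limma).

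Srebf1 encodes SREBP1, which in mouse liver drives mainly the fatty acid genes, and its c form is itself an LXR target. It had 9.74, 10.07, 10.47 and 10.33 in NEP tumors and 10.11, 10.06, 10.16 and 10.26 in GNP tumors. It had 8.49, 8.12, 8.52 and 8.66 in NEPs, 8.59, 8.97, 8.90 and 8.79 in GNPs, and 8.96, 9.01 and 9.14 in NSCs. All tumor arrays were above all others. Srebf1 rose 3.25-fold in NEP tumors against NEPs (1.70 ± 0.14 SE, adjusted p = 1.37e-08, limma) and 2.52-fold in GNP tumors against GNPs (1.33 ± 0.14 SE, adjusted p = 6.71e-07, limma). Against NSCs it rose by 1.11 in each tumor (adjusted p = 1.66e-05 for NEP tumors and 1.46e-05 for GNP tumors, limma).

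Insig1, an SREBP target that holds SCAP in the endoplasmic reticulum, had 8.14, 7.72, 8.67 and 8.34 in NEP tumors and 8.78, 8.80, 8.88 and 8.68 in GNP tumors, against 8.65, 8.72, 8.74 and 8.76 in NEPs, 9.25, 8.76, 9.18 and 9.04 in GNPs, and 8.98, 8.87 and 8.84 in NSCs. It fell by 0.50 in NEP tumors against NEPs (adjusted p = 0.00586, limma) and by 0.68 against NSCs, but NEP tumors and NEPs overlapped, and with NEP tumor arrays 3 and 4 alone the difference from NEPs was -0.22 (adjusted p = 0.136). Its differences in GNP tumors, -0.27 from GNPs and -0.11 from NSCs, did not pass. Insig2, the related retention protein, had 6.75, 6.83, 6.59 and 6.81 in NEP tumors and 6.78, 6.71, 6.72 and 7.05 in GNP tumors, against 6.79, 7.0, 7.04 and 6.92 in NEPs, 6.50, 6.62, 6.48 and 6.79 in GNPs, and 6.13, 6.38 and 6.31 in NSCs. It rose by 0.47 and 0.54 against NSCs. Scap itself fell by 0.65 and 0.52 against the progenitors and by 0.33 and 0.49 against NSCs.

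**Figure D3:**
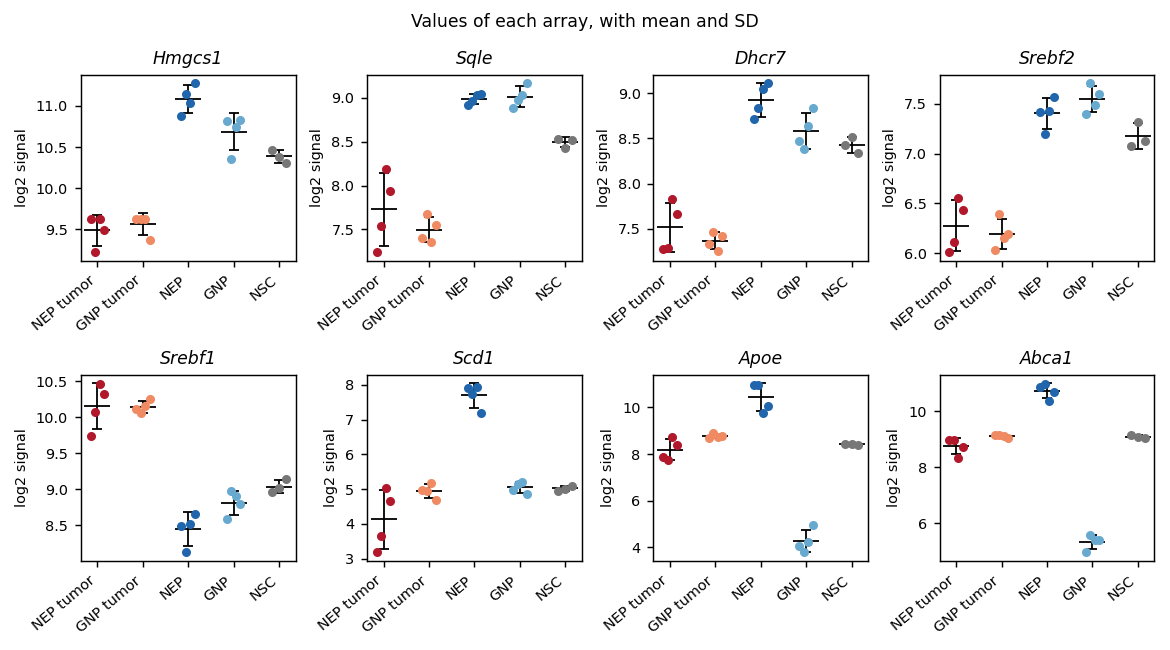
Log2 signal of each array (points), with the group mean and SD (black bars), for 8 genes, on axes that do not start at 0. Hmgcs1, Sqle, Dhcr7 and Srebf2 are lower on all 8 tumor arrays than on the 11 others, Srebf1 is higher on all 8, Scd1 is highest in NEPs, and Apoe and Abca1 are far lower in GNPs than in any other group.

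At the median the fatty acid genes differed by -0.73 in NEP tumors against NEPs and by -0.52 in GNP tumors against GNPs, where the mevalonate genes differed by -0.97 and -1.25. Of the 8 fatty acid genes, 4 fell in NEP tumors against NEPs and 7 in GNP tumors against GNPs, 5 fell in each tumor against NSCs, and none rose by the same test (with 0 called higher in each of these 4 comparisons). Over all genes, 32.6% and 31.4% fell in NEP and GNP tumors against the progenitors, and 20.4% and 25.4% against NSCs. Fasn, the fatty acid synthase, had 9.80, 9.89, 10.22 and 10 in NEP tumors and 9.85, 9.94, 9.86 and 9.91 in GNP tumors, against 10.13, 9.87, 10.11 and 10.29 in NEPs, 10.40, 10.53, 10.39 and 10.28 in GNPs, and 10.19, 10.37 and 10.22 in NSCs. Its fall was 1.43-fold in GNP tumors against GNPs (-0.51 ± 0.10 SE, adjusted p = 0.000295, limma). The difference in NEP tumors, -0.12, did not pass (95% interval from -0.32 to 0.08). Elovl6, which lengthens saturated chains, fell by 0.58 in GNP tumors against GNPs, while 1 of its other probe sets, with a mean of 2.72, gave 0.75. Acly, which makes cytosolic acetyl-CoA, fell by 0.48 in GNP tumors against GNPs, and Acaca, the carboxylase that follows, by 0.52.

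In NEP tumors the desaturases had the lowest differences of this role. Fads2, the first desaturase of long polyunsaturated fatty acids, had 7.07, 7.18, 7.53 and 7.40 in NEP tumors and 7.52, 7.58, 7.29 and 7.43 in GNP tumors, against 8.79, 8.65, 8.68 and 8.66 in NEPs, 8.18, 8.62, 8.41 and 8.29 in GNPs, and 8.13, 8.31 and 8.21 in NSCs. The tumor arrays lay below all others, with falls of 1.40 and 0.92 against the progenitors and 0.92 and 0.76 against NSCs. Its neighbour in the pathway, Fads1, fell by 1.67 and 0.88 against the progenitors and by 0.77 and 0.64 against NSCs. Scd1, a desaturase that makes oleic acid, had 3.18, 3.66, 5.03 and 4.65 in NEP tumors and 4.99, 4.95, 5.19 and 4.68 in GNP tumors, against 7.91, 7.75, 7.94 and 7.19 in NEPs, 4.99, 5.15, 5.22 and 4.85 in GNPs, and 4.96, 5.01 and 5.10 in NSCs. NEPs stood apart, and the 11.9-fold fall in NEP tumors against NEPs (-3.57 ± 0.29 SE, adjusted p = 1.28e-08, limma) was the largest of the 35 genes in that comparison. The fall of 0.89 in NEP tumors against NSCs was -0.18 with NEP tumor arrays 3 and 4 alone (adjusted p = 0.512), and the call was lost without NEP tumor array 1 or 2 or any NSC array (-0.93 to -0.58).

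Scd2, the main brain form of the same desaturase, had 10.81, 10.57, 10.93 and 10.76 in NEP tumors and 10.80, 10.85, 10.86 and 10.76 in GNP tumors. It had 12.03, 12.10, 12 and 12.31 in NEPs, 11.17, 11.10, 11.23 and 11.03 in GNPs, and 11.25, 11.15 and 11.13 in NSCs. It fell by 1.34 in NEP tumors against NEPs and by 0.32 in GNP tumors against GNPs. Probe sets of Scd2 disagreed: that with a mean of 7.65 gave 0.87 and 0.99 for NEP and GNP tumors against NSCs, and that with a mean of 3.54 gave 3.76 for GNP tumors against GNPs. The direction for Scd2 against NSCs, and in GNP tumors against GNPs, therefore depends on the probe set, whereas all 3 probe sets fell in NEP tumors against NEPs.

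Of 4 genes of sterol transport, Apoe, Abca1 and Abcg1 had their highest group mean in NEPs and their lowest in GNPs, and Stard4 had its lowest in NEPs. Apoe had 7.87, 7.76, 8.72 and 8.40 in NEP tumors and 8.69, 8.89, 8.74 and 8.77 in GNP tumors, against 10.94, 10.94, 9.76 and 10.08 in NEPs, 4.06, 3.82, 4.24 and 4.96 in GNPs, and 8.43, 8.42 and 8.39 in NSCs. It fell 4.74-fold in NEP tumors against NEPs (-2.24 ± 0.27 SE, adjusted p = 1.78e-06, limma) and rose 22.6-fold in GNP tumors against GNPs (4.50 ± 0.27 SE, adjusted p = 7.94e-10, limma). Its differences from NSCs, -0.23 and 0.36, did not pass. Abca1, the exporter that loads cholesterol onto apolipoproteins, had 8.98, 8.99, 8.35 and 8.74 in NEP tumors and 9.17, 9.17, 9.12 and 9.05 in GNP tumors, against 10.89, 11.00, 10.39 and 10.69 in NEPs, 4.95, 5.58, 5.38 and 5.39 in GNPs, and 9.15, 9.07 and 9.06 in NSCs. It fell by 1.97 in NEP tumors against NEPs and rose by 3.80 in GNP tumors against GNPs, and its differences from NSCs, -0.33 and 0.04, did not pass.

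Apoe is a gene of astroglia and microglia, so markers of other cells are given beside these results. The summed signal of 10 astroglia markers (log2 of the sum) ran from 10.54 to 11.26 in NEP tumors and 10.96 to 11.04 in GNP tumors, against 14.07 to 14.37 in NEPs, 10.09 to 10.33 in GNPs and 12.31 to 12.35 in NSCs. That of 12 microglia markers ran from 8.56 to 9.81 in NEP tumors and 10.19 to 10.25 in GNP tumors, against 6.20 to 13.24 in NEPs, 5.61 to 5.72 in GNPs and 8.45 to 8.80 in NSCs. Of the astroglia markers, 8 fell and 1 rose in NEP tumors against NEPs, and 9 rose and 1 fell in GNP tumors against GNPs. Of the microglia markers, 4 fell in NEP tumors against NEPs and 7 rose in GNP tumors against GNPs. All 9 fibroblast and mural markers fell in NEP tumors, and 6 rose in GNP tumors. Their part in the result was not tested.

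Abcg1, the partner exporter, had 4.63, 4.87, 4.80 and 4.66 in NEP tumors and 5.19, 5.20, 5.15 and 5.12 in GNP tumors, against 7.02, 6.93, 5.20 and 4.99 in NEPs, 4.05, 4.05, 4.12 and 4.62 in GNPs, and 4.59, 4.57 and 4.51 in NSCs. NEP arrays 1 and 2, those with high microglia markers, held the high values. Its fall in NEP tumors was 1.30, or 0.36 against NEP arrays 3 and 4 alone, and the rise of 0.96 in GNP tumors (adjusted p = 0.0278, limma) was lost without GNP array 1, 2 or 3 or GNP tumor array 1, 2 or 3 (0.90 to 0.96). GNP and GNP tumor arrays did not overlap, and the pooled spread in that test includes the NEP arrays. The SD was 1.09 in NEPs, 0.275 in GNPs and 0.036 in GNP tumors. Stard4, a carrier of sterol through the cytosol and an SREBP target in mouse, had 7.97, 7.71, 8.57 and 8.33 in NEP tumors and 7.91, 7.82, 7.83 and 7.74 in GNP tumors. Its progenitor values were 6.92, 7.03, 7.14 and 7.02 in NEPs, 8.14, 8.13, 8.17 and 8.04 in GNPs, and 8.0, 8.08 and 7.91 in NSCs. It rose by 1.11 in NEP tumors against NEPs (adjusted p = 1.03e-06, limma), and its other tumor differences did not pass.

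NEPs and GNPs were compared within run 1. In NEPs against GNPs 14 of the 35 genes were higher and 12 lower, where 29.6% of all genes were higher and 39.9% lower. The members were thus called at a share near that of all genes. The median difference was 0.14, against -0.11 over all genes, and it was -0.06 with averaged probe sets, -0.03 with the filter at the 75th percentile, 0.03 after a repeated quantile normalization, 0.08 without NEP array 4 and 0.22 without NEP array 2. Apoe was 71.4-fold higher in NEPs (6.16 ± 0.27 SE, adjusted p = 3.35e-12, limma) and Abca1 42.7-fold higher (5.42 ± 0.15 SE, adjusted p = 7.02e-15, limma). With NEP arrays 3 and 4 alone, where microglia markers are lower, these differences were 5.65 and 5.21. Abcg1 was higher by 1.83, or by 0.89 with those 2 arrays. All 10 astroglia, 12 microglia, 9 fibroblast and mural and 7 endothelial markers were higher in NEPs too, as were 6 of 7 oligodendrocyte markers. By contrast, 7 of 8 neuron and 7 of 8 granule progenitor markers were lower in NEPs. The part of these markers in the result was not tested.

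Desaturases were higher in NEPs, with Scd1 up by 2.65 (6.27-fold, adjusted p = 5.6e-07, limma), Scd2 by 0.98, Fads1 by 0.66 and Fads2 by 0.32. Fasn, Acaca and Elovl6, which build and lengthen saturated chains, were lower by 0.30, 0.54 and 0.56. Sterol genes went both ways. Tm7sf2 was 4.34-fold higher in NEPs (2.12 ± 0.17 SE, adjusted p = 1.24e-08, limma), and Lbr, the other reductase of its step, was 2.07-fold lower (-1.05 ± 0.07 SE, adjusted p = 1.27e-09, limma). Ebp was lower by 1.02, Stard4 by 1.09 and Mvd by 1.37 (2.58-fold, adjusted p = 4.63e-05, limma), while Sc5d was higher by 0.96. NEP and GNP arrays overlapped for Fasn. Calls were common in this comparison, at 29.6% of all genes higher and 39.9% lower.

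Sqle and Srebf2 differed by -0.03 (95% interval from -0.34 to 0.29) and -0.14 (from -0.39 to 0.11) and did not pass. Hmgcs1 was higher in NEPs by 0.40 (adjusted p = 0.00623, limma), and 1 of its other probe sets, with a mean of 3.54, gave -1.65. Another Fads1 probe set, with a mean of 4.42, gave -0.45, against 0.66 for the one used. Srebf1 was lower by 0.36 and Insig1 by 0.34, with overlapping arrays. The call was lost for Srebf1 without GNP array 2 or 3 or NEP array 2 (-0.33 to -0.25), and for Insig1 without any array but GNP array 2 (-0.35 to -0.28). It was also lost for Fads2 without GNP array 1 (0.26), for Cyp51 without GNP array 2 or 3 or NEP array 1, 2 or 3 (0.24 to 0.30), and for Dhcr7 without GNP array 1 or 2 or NEP array 3 or 4 (0.27 to 0.30).

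**Figure D4:**
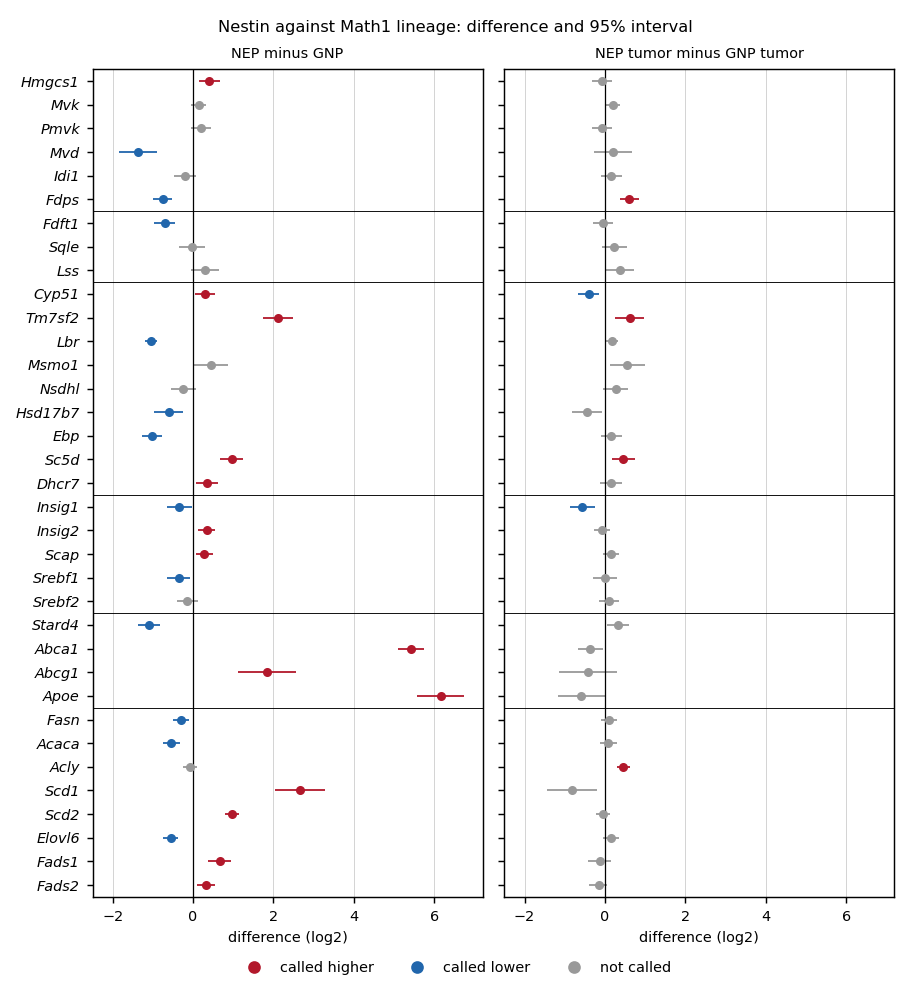
Difference in log2 signal (points) with its 95% interval (lines) for each of the 35 genes in NEPs minus GNPs (left) and in NEP tumors minus GNP tumors (right), on the same axis. Red marks genes called higher, blue genes called lower and grey genes not called. Differences above 5 for Abca1 and Apoe between the progenitors stand beside differences of -0.36 and -0.59 between the tumors.

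The tumors were also compared within a run. In NEP tumors against GNP tumors 4 of the 35 genes were higher and 2 lower, where 15.5% of all genes were higher and 8.10% lower. The median difference was 0.09, against 0.05 over all genes. Leaving out 1 array gave medians from 0.01 (without NEP tumor array 3) to 0.15 (without GNP tumor array 2). Fdps was higher in NEP tumors by 0.61 (adjusted p = 0.000994, limma) and Acly by 0.46 (adjusted p = 0.000564, limma). Acly had 10.28, 10.33, 10.66 and 10.49 in NEP tumors, against 9.87, 10.03, 9.99 and 10.06 in GNP tumors, while NEPs had 10.36, 10.39, 10.50 and 10.32, GNPs 10.47, 10.55, 10.43 and 10.41, and NSCs 10.20, 10.27 and 10.23.

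Tm7sf2 was higher in NEP tumors by 0.62 (adjusted p = 0.0156, limma) and Sc5d by 0.46 (adjusted p = 0.0235, limma), and Insig1 was lower by 0.57 (adjusted p = 0.00991, limma) and Cyp51 by 0.40 (adjusted p = 0.0227, limma). The call for Tm7sf2 was lost without NEP tumor array 4 (0.56), and that for Sc5d without NEP tumor array 3 or 4 or GNP tumor array 1 or 4 (0.38 to 0.42). That for Cyp51 was lost without NEP tumor array 1 or 2 or GNP tumor array 1 or 2 (-0.39 to -0.28), and another Cyp51 probe set, with a mean of 7.15, gave 2.17. With NEP tumor arrays 3 and 4 alone, Insig1 and Cyp51 were not called (adjusted p = 0.133 and 0.323). With those 2 arrays, 12 genes were called higher and 2 lower, where 10.6% of all genes were higher and 6.21% lower, and the median was 0.22, against 0.04. They are the NEP tumor arrays with the higher medians of the 35 genes (8.19 and 7.94). An upward shift was thus built into this choice, and the counts are no separate result. Among the 12 were Sqle at 0.57 (adjusted p = 0.00179) and Msmo1 at 1.00. Hmgcs1 (-0.08, 95% interval from -0.33 to 0.17), Srebf1 (0.01, from -0.29 to 0.30) and Srebf2 (0.09, from -0.16 to 0.34) did not pass. After a repeated quantile normalization the split over all genes was 1321 higher and 1220 lower, against 1877 and 984.

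Whether the gap between lineages was the same in tumors as in progenitors was tested as the difference of the differences, NEP tumors minus GNP tumors less NEPs minus GNPs, in which a run effect common to both groups cancels. It was higher for 11 of the 35 genes and lower for 12, where 36.7% of all genes were higher and 25.2% lower, so that both sets were called in similar shares. The largest were Apoe at -6.74 ± 0.39 SE (adjusted p = 2.43e-10, limma), Abca1 at -5.78 ± 0.22 SE (adjusted p = 8.34e-13), Scd1 at -3.47 and Abcg1 at -2.25. Mvd stood at 1.57 and Tm7sf2 at -1.50. For Apoe the gap was -0.59 between tumors and 6.16 between progenitors, for Abca1 -0.36 and 5.42, and for Scd1 -0.82 and 2.65. For Mvd it was 0.20 between tumors and -1.37 between progenitors. Of the microglia markers 11 of 12 were lower in the same test, as were 9 of 10 astroglia and 9 of 9 fibroblast and mural markers. So were 6 of 7 endothelial and 6 of 7 oligodendrocyte markers, with 1 oligodendrocyte marker higher. By contrast, 7 of 8 neuron and 6 of 8 granule progenitor markers were higher. The part of these markers in the result was not tested.

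The progenitors were compared with NSCs across runs. In NEPs against NSCs 20 of the 35 genes were higher and 5 lower, where 30.9% of all genes were higher and 27.6% lower. The median difference was 0.46, against 0.02 over all genes, and it was 0.25 with averaged probe sets, against -0.04. The highest were Scd1 at 2.68, Tm7sf2 at 2.61 and Apoe at 2.02, and the lowest were Lbr at -1.01, Stard4 at -0.96 and Ebp at -0.85 (adjusted p at most 3.23e-05 for each, limma). Hmgcs1 was higher by 0.70 and Sqle by 0.49, and Srebf1 was lower by 0.59. Of the astroglia markers 8 of 10 were higher in NEPs than in NSCs, of the oligodendrocyte markers 5 of 7, and of the microglia markers 1 of 12. By contrast, 7 of 8 neuron markers were lower and 1 higher, and 8 of 8 granule progenitor markers were lower. The part of these markers in the result was not tested. After the repeated quantile normalization all genes split into 2949 higher and 4349 lower, against 3748 and 3347, and the 35 genes into 18 and 5.

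In GNPs against NSCs 16 of the 35 genes were higher and 2 lower, where 23.2% of all genes were higher and 13.1% lower. The median difference was 0.27, against 0.06 over all genes. Mvd was higher by 1.03, Hsd17b7 by 1.00 and Nsdhl by 0.92 (adjusted p = 0.0033, 0.00057 and 0.00024, limma), and all 3 squalene genes were higher, by 0.50 for Fdft1, 0.52 for Sqle and 0.69 for Lss. Abca1 and Apoe were lower by 3.77 and 4.14 (adjusted p = 5.87e-11 and 2.18e-08, limma). Of the markers 9 of 10 astroglia, 9 of 9 fibroblast and mural, 7 of 7 endothelial, 3 of 7 oligodendrocyte and 2 of 12 microglia genes were lower as well. The array median of the microglia list ran from 1.85 to 2.09 in GNPs and from 4.15 to 4.61 in NSCs. The pooled spread in the test of these markers includes the NEP arrays, which split in them. By contrast, 2 of 8 neuron and 1 of 8 granule progenitor markers were higher. The part of these markers in the result was not tested. The count of genes called higher was 9 without NSC array 1 and 10 without NSC array 6. Over all genes, 2174 and 2312 were higher in those fits, against 2823 with all arrays.

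Genes next to these pathways were counted in the same way, to be read against 36.2% of all genes higher and 32.6% lower in NEP tumors, and 18.5% higher and 31.4% lower in GNP tumors. Of 8 tested genes of the prenyl branch, which uses farnesyl diphosphate for other products, 3 rose and none fell (0) in NEP tumors against NEPs, and 3 rose and 3 fell in GNP tumors against GNPs. Ggps1, the synthase of geranylgeranyl diphosphate, rose by 0.90 in NEP tumors, and Fntb, a farnesyltransferase subunit, fell by 0.89 in GNP tumors. Of 14 further genes of sterol handling and SREBP cleavage, 10 fell and 3 rose in NEP tumors against NEPs. The 3 were the exporter gene Abca7 (0.92) and the genes of the proteases that cleave SREBPs, Mbtps1 (0.35) and Mbtps2 (1.13). Of the same 14, 4 rose and 2 fell in GNP tumors against GNPs. The lipoprotein receptor gene Lrp8 fell by 3.11 in NEP tumors, and its difference of -0.37 in GNP tumors did not pass. Vldlr, a relative of Lrp8, fell by 2.00 in NEP tumors and rose by 2.22 in GNP tumors. The largest rise of this list in GNP tumors was that of Apod, by 5.13. Of 17 further fatty acid genes, 13 fell and 1 rose in NEP tumors against NEPs, and 4 fell and 3 rose in GNP tumors against GNPs. Me1, the malic enzyme that supplies NADPH, fell by 1.70 in NEP tumors and rose by 1.2 in GNP tumors.

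Against NSCs, within run 2, where 23.9% of all genes rose and 20.4% fell in NEP tumors and 22.2% rose and 25.4% fell in GNP tumors, 1 prenyl branch gene rose and 1 fell in NEP tumors, and 1 rose and 2 fell in GNP tumors. Of the sterol handling genes, 5 rose and 3 fell in NEP tumors and 4 rose and 3 fell in GNP tumors, with Abca7, an exporter gene, up by 1.51 and 1.77 while Lrp8 fell by 1.40 and 2.20. Of the further fatty acid genes, 1 rose and 3 fell in NEP tumors, and 3 rose and 4 fell in GNP tumors.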

How the data were processed

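Gene expression was measured on 19 arrays. The values used are log2 probe set signals deposited by the authors, which the submitters' processing notes credit to RMA and Affymetrix Expression Console, with no version or log base. Per the labels' protocols, 100 ng of total RNA was amplified and biotin labelled. RMA pools the probes of a set and makes array distributions alike, so a shift shared by all genes is lost.

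Of 45101 probe sets, those with 1 gene symbol (34945) were used, and each gene took its probe set with the highest mean. The 12148 genes at or above the array median (2.44 to 2.57) on at least 3 arrays were tested with limma 3.58.1 in R 4.3.3: a mean for each of the 5 groups, the spread pooled over all 19 arrays, two-sided tests, Benjamini-Hochberg adjustment over all genes tested. The procedure was tested on simulated data. Differences are log2. Of the 9 comparisons, 7 were planned, and those of tumors with NSCs were added after seeing the data. The number of arrays limits the precision.

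The 38 genes, their roles, the lists of neighbouring pathways and the marker lists (microglia, fibroblast and mural, endothelial, astroglia, oligodendrocyte, neuron, granule progenitor) were chosen with earlier results of these data known. Array values are given for Hmgcs1, Sqle, Srebf1, Srebf2, Insig1, Apoe and Fasn, for the 10 largest called differences within a run, the 6 largest differences of differences, and the 3 largest called in each direction across runs and against NSCs. Other genes are named with single values. Alternatives changed the filter, the normalization, the choice of probe set, the variance model, the arrays used and the replicate block. Promoter sequences are those of RefSeq, GRCm38.p6. Some marker lists were not given above for tumors against progenitors. In NEP tumors against NEPs, 6 of 7 endothelial markers fell, and 4 of 7 oligodendrocyte markers fell and 1 rose. In the same comparison 8 of 8 neuron markers and 6 of 8 granule progenitor markers rose. In GNP tumors against GNPs, 1 endothelial and 4 oligodendrocyte markers rose, 1 granule progenitor marker fell, and 0 neuron markers passed.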

Additional observations from a re-analysis of the deposited data

Results flagged for a closer look

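Of 140 sets of 4 arrays (35 genes in 4 groups), 6 held an array far from the other 3 of its group by Dixon's test, and chance alone flags about 1 in 20. Hmgcs1 on GNP tumor array 4 was 9.37, with the nearest other array at 9.62. Mvk on NEP array 2 was 4.92 against 5.19, and Fdft1 on the same array was 9.24 against 9.38. Fdps on NEP array 1 was 8.68 against 8.59, Lbr on NEP tumor array 1 was 10.69 against 10.48, and Abcg1 on GNP array 4 was 4.62 against 4.12.

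For 23 of the 35 genes the gap between lineages differed between tumors and progenitors by the test of the difference itself, with limma over all genes. This was 11 higher and 12 lower, where 36.7% of all genes were higher and 25.2% lower. It was lower for Apoe (-6.74), Abca1 (-5.78), Scd1 (-3.47), Abcg1 (-2.25), Tm7sf2 (-1.50), Scd2 (-1.03), Fads1 (-0.79), Cyp51 (-0.70), Sc5d (-0.50), Hmgcs1 (-0.48), Fads2 (-0.48) and Insig2 (-0.41). It was higher for Mvd (1.57), Stard4 (1.41), Fdps (1.36), Lbr (1.22), Ebp (1.19), Elovl6 (0.71), Fdft1 (0.66), Acaca (0.63), Acly (0.53), Nsdhl (0.51) and Fasn (0.39).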

How the results depend on the processing

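Over 4987 single-gene values recomputed under the alternatives, 4674 kept their direction and side of the threshold, 200 lost the call, 104 gained one and 9 reversed. All 9 reversals came from averaging all probe sets of a gene, and the cause was not tested: in NEPs against GNPs, Hmgcs1 at -0.06, Lss at -0.23 and Cyp51 at -0.02; in NEP tumors against GNP tumors, Cyp51 at 0.51, and in the difference of differences 0.53; in NEP tumors against NEPs, Insig2 at 0.34; in GNP tumors against GNPs, Scd2 at 0.95; in GNP tumors against NSCs, Cyp51 at -0.85 and Scd2 at 1.12. A further 70 values changed sign without a call on either side.

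The counts most open to the processing were those between the tumors. Of the 4 genes called higher in NEP tumors than in GNP tumors, the count became 7 with averaged probe sets and 12 with NEP tumor arrays 3 and 4 only, and leaving out 1 array gave 2 (without NEP tumor array 4) to 7 (without NEP tumor array 2) higher and 1 to 3 lower, against 2 lower with all arrays; it was 1 without NEP tumor array 1 or GNP tumor array 1 or 2. Over all genes, leaving out 1 array gave 1358 to 1926 higher and 729 to 906 lower between the tumors, against 1877 and 984. Averaged probe sets gave 7 higher in NEP tumors against NEPs and 5 against NSCs, where the counts as reported were 4 and 3. With averaged probe sets 11592 genes were tested in all. Of these, 2170 were higher between the tumors, 4798 in NEP tumors against NEPs and 3053 against NSCs. As reported these were 1877, 4399 and 2908 of 12148. The count against NSCs was 6 with NEP tumor arrays 3 and 4 only, and 3 to 6 when 1 array was left out, with 6 without NEP tumor array 2. A fit of only the groups compared gave 5 higher in GNP tumors against NSCs, against 3. Over all genes it gave 3679 higher, against 2697. In GNPs against NSCs leaving out 1 array gave 9 to 13 higher, against 16. Over all genes the same fits gave 2174 to 2607 higher, against 2823. The counts of genes lower in tumors against progenitors ranged from 23 to 24 and stood at 26 when 1 array was left out, and those against NSCs from 14 to 20 and from 17 to 20. Over all genes, the same fits gave 3751 to 4066 and 3370 to 3598 lower against the progenitors. Against NSCs they gave 1992 to 2398 and 2599 to 2860.

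A filter at the 75th percentile left 7932 genes, against 12148, and the counts over all genes fell with the number tested. They were 2082 against 3596 higher in NEPs against GNPs and 2305 against 3748 higher in NEPs against NSCs. In NEP tumors against NEPs 2361 against 3966 were lower, and in the difference of differences 1796 against 3058. These counts come from unlike numbers of genes, so they do not measure a change in the share called. The repeated quantile normalization moved the median of all genes in NEPs against NSCs to -0.11, against 0.02. No pairing of arrays by replicate number was seen in the values: the deviations of same-numbered NEP and GNP arrays correlated at -0.16 to 0.07 and those of the tumors at -0.04 to 0.05. This cannot show that same-numbered samples were prepared apart. With the replicate block, 11 genes were higher and 9 lower in NEPs against GNPs, 4 and 2 in NEP tumors against GNP tumors, 3 and 21 in NEP tumors against NEPs, 5 and 28 in GNP tumors against GNPs, and 10 and 11 in the difference of differences. The block moved the counts over all 12148 genes too. These were 2854 higher and 3736 lower in NEPs against GNPs, and 1966 and 1164 between the tumors. They were 3102 and 2952 in NEP tumors against NEPs, and 2796 and 4195 in GNP tumors against GNPs. For the difference of differences they were 4175 and 2879. Comparisons of NEPs or GNPs with tumors or NSCs carry the run with them, and dim signals understate folds.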
